A study of Mus musculus with 10 samples.

Results

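The regions described here are the 1642 Rcor2 peaks that the submitters' table classes as intergenic, of 6995 peaks in all (23.5%). They were taken by that class alone, so neither their heights nor the change of any gene chose them, but every peak in the table was called on the Rcor2 libraries. The ChIP libraries were 2 of Rcor2 immunoprecipitation, 2 of rabbit IgG immunoprecipitation and 2 of total input, all from the cortical midline of wild type C57/Bl6 mouse embryos on embryonic day 14.5. The RNA libraries were 2 from conditional knockout (cKO) midlines, Rcor2f/f with EMX1-iCRE, and 2 from control midlines, Rcor2f/f without Cre, of the same strain and day. All 4 RNA libraries therefore carried the floxed allele. The study set Rcor2 binding beside the expression changes in the knockout. Nothing in the labels ties a library to an embryo or says whether embryos were pooled, so p-values measure the spread between libraries, which may be technical.

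Rcor2 is a member of the CoREST family of corepressors, scaffolds through which DNA-binding factors such as Rest reach the lysine demethylase Kdm1a (LSD1) and the deacetylases Hdac1 and Hdac2. Such complexes take methyl groups from histone H3 lysine 4 and acetyl groups from histone tails. They are found at promoters and at enhancers, which can lie far from the gene they act on. Emx1 is expressed in progenitors of the dorsal telencephalon, so Cre under its control acts in cortical progenitors and their descendants and not in vessels, blood or microglia.

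The intergenic label was compared with the RefSeq annotation of GRCm38.p6, the assembly called mm10. Of the 1642 peaks, 415 (25.3%) overlapped some annotated gene, 292 of them a long noncoding RNA (lncRNA) gene and 100 a protein-coding gene. The other 1227 overlapped none. A further 346 lay within 50 kb of a protein-coding gene without touching it, and 1196 (72.8%) lay farther away. The median gap to the nearest protein-coding gene was 101296 bp, against 10929 bp for the 1219 peaks of the distal class. The label thus holds for most members against coding genes, with lncRNA loci inside the class. Peaks that overlapped a RefSeq gene and peaks that overlapped none had the same median heights in both Rcor2 libraries to within 1 unit of coverage (13 and 19 on a gene, 13 and 18 off genes).

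A few peaks overlapped a window around the start of an annotated gene, some by only 7 bases, and for those windows the DNA can be shown. Such an overlap need not reach the start itself. RefSeq start windows (250 bases before to 50 after a gene's start, GRCm38.p6) were crossed by 33 intergenic peaks in 41 pairs of peak and window. In 14 of these peaks the summit lay inside the window. The same window of LOC115488002 was crossed by neighbouring peaks and entered for each of them. Most of the genes were lncRNAs. The windows of 4 protein-coding genes on 3 chromosomes held an identical run of 16 bases, the longest found in at least 4 of the 6 protein-coding genes crossed. The stretches around that run are shown because they are the sequence that these intergenic peaks had in common; the run is in capitals, and every stretch lies within its peak.

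Gm14410 (chr2:177206485-177206620, minus strand): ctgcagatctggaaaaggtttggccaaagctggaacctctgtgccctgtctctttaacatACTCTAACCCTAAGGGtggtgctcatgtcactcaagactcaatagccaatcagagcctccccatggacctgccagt
Gm3325 (chr13:62015767-62015902, plus strand): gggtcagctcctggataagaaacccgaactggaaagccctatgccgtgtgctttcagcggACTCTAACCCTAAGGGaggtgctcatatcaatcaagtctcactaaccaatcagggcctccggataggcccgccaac
5430403G16Rik (chr5:109690882-109691017, minus strand): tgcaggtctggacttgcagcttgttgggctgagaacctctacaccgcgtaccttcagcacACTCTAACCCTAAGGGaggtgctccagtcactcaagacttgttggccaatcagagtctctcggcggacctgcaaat
4930522L14Rik (chr5:109751741-109751837, minus strand): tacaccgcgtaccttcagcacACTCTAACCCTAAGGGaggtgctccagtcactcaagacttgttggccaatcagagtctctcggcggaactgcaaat

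The stretches of 5430403G16Rik and 4930522L14Rik were alike at 96 of 97 bases compared, and those of Gm14410 and Gm3325 at 85 of 136. The run, ACTCTAACCCTAAGGG, was looked for after the windows had been seen and was then counted, on both strands, in all 32817 start windows. It was found in 41 windows of 37 genes (0.125% of windows), 33 of them on chromosome 2, 6 on chromosome 13 and 2 on chromosome 5. Peaks of any class crossed 15 of those 41 windows (36.6%), against 619 of all windows (1.89%). Intergenic peaks crossed 4 and peaks of the other classes 11. Near-identical copies share reads, and no source used here says how such reads were placed, so heights at these windows are uncertain.

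The peak at 5430403G16Rik (chr5:109690797-109691240) had heights of 27 and 43 in the Rcor2 libraries, 5 and 2 in IgG and 20 and 14 in input, with a fold enrichment of 8.33 over the IgG background by the authors' peak caller. The peak at 4930522L14Rik (chr5:109751700-109752095) had 23 and 35 in Rcor2, 6 and 4 in IgG and 18 and 15 in input. At Gm14410 (chr2:177206376-177206721) the heights were 20 and 21 in Rcor2, 1 and 0 in IgG and 13 and 12 in input. At these 3 peaks both Rcor2 libraries were above both input libraries as deposited, as at 45.7% of intergenic and 40.3% of all peaks. At Gm3325 (chr13:62015609-62015971) the Rcor2 and input libraries overlapped. The heights there were 18 and 18 in Rcor2, 6 and 2 in IgG and 19 and 15 in input.

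Transfer RNA genes were a second annotated feature under the peaks. They lay under 14 intergenic peaks (0.853%, 95% Clopper-Pearson interval 0.467 to 1.43%), against 94 of the 1219 distal peaks (7.71%), 36 promoter peaks (2.22%) and 4 gene body peaks (0.159%). Of the 14, 5 were on chromosome 13, 4 on chromosome 19 and 2 on chromosome 1. Their median heights were 14.5 and 23 in Rcor2, 5 and 5 in IgG and 13 and 14.5 in input. The sequence under the alanine tRNA gene n-TAagc16 is shown because the start window of the lncRNA gene Gm32420, which holds this tRNA gene, lay wholly inside a peak (chr13:21222420-21222934, heights 19 and 31 in Rcor2, 2 and 3 in IgG, 9 and 15 in input). The 72 bases of the tRNA gene are in capitals, read on the strand of Gm32420, which is opposite to that of the tRNA gene.

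n-TAagc16 (chr13:21222526-21222717, minus strand): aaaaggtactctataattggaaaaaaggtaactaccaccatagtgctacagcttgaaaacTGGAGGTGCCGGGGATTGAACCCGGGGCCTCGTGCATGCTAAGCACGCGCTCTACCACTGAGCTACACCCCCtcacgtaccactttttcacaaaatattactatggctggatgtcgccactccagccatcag

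The motifs searched were not shared by most windows. TTCAGCACC, the left part of the Rest motif, was in 0 of the 41 crossed windows, counted as pairs of peak and window, and in 0.372% of all windows. GGACAG, from its right part, was in 19 of 41 (46.3%) and in 22.2% of all. AGGGGGC, found in the CTCF motif, was in 3 of 41 (7.32%) and in 10.6% of all. The E-box CAGCTG was in 8 of 41 (19.5%) and in 16.3% of all, and the homeodomain core TAATTA in 4 of 41 (9.76%) and in 5.30% of all. The palindromic Nfi motif was in 0 of 41 and in 0.0366% of all. Both strands were searched. Several windows are neighbouring starts of the same gene and overlap, and that of LOC115488002 entered for each peak crossing it, so the 41 are not independent. Their median GC content was 50.3%, against 52.7% over all windows, and their median number of CpG was 4, against 7.

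Peak heights at intergenic regions were like those elsewhere in the Rcor2 and IgG libraries and lower than at promoters in input. The median intergenic height, in units of coverage as deposited, was 13 and 19 in the Rcor2 libraries, 4 and 3 in IgG, and 12 and 11 in input. Promoter peaks had 13 and 19 in Rcor2, 4 and 3 in IgG, and 15 and 14 in input. The fold enrichment had a median of 4.0 in the intergenic class and in each of the other classes, with a highest intergenic value of 14.0. Intergenic peaks spanned 150 to 1517 bases with a median of 239.5, and the other 5353 peaks had a median of 235.

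**Figure D1:**
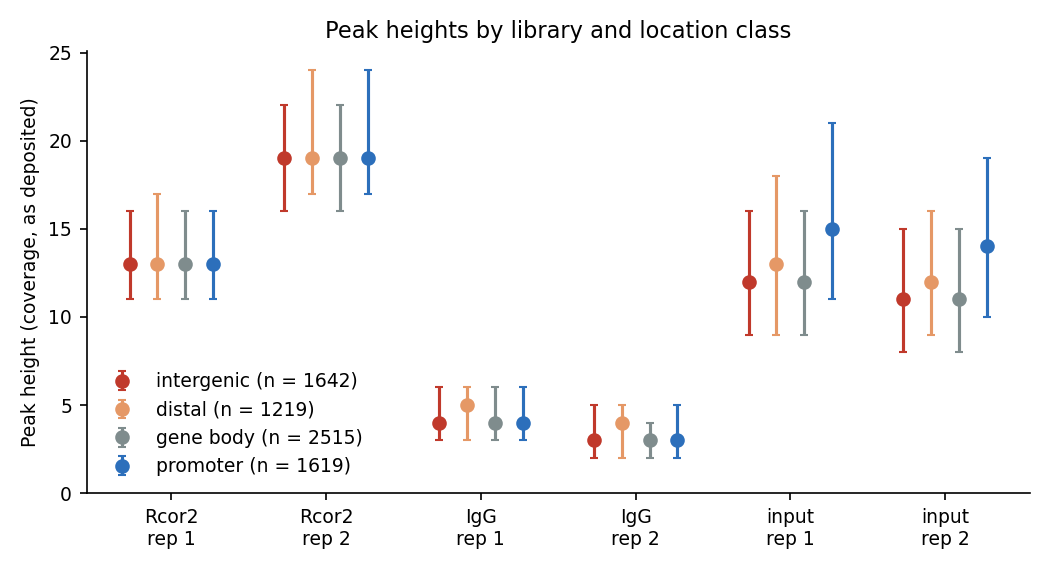
Median peak height (points) with the interquartile range (bars) in each of the 6 libraries, in coverage as deposited and not scaled for depth, for intergenic, distal, gene body and promoter peaks. In both Rcor2 libraries the 4 classes share a median (13 and 19), while in the input libraries the promoter medians (15 and 14) stand above the intergenic ones (12 and 11).

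A difference between classes within 1 library was taken without scaling for depth, but it is not free of depth. Heights are whole numbers to which 1 is added, so medians move in steps that are larger at low heights. Input medians were 12 and 11 at intergenic peaks and 13 and 12 at all other peaks. The median log2(height + 1) of intergenic peaks minus that of all other peaks was 0 in both Rcor2 libraries, 0 in both IgG libraries, and -0.11 and -0.12 in the input libraries. The Rcor2 libraries exceeded the input libraries in this difference by 0.11 on the log2 scale, with an exact permutation p of 0.333 (two-sided), the smallest p that 2 libraries against 2 allow. The gap was widest against the promoter class. In class means, the Rcor2 libraries exceeded the input libraries by 0.26 when intergenic peaks were set against promoter peaks, by 0.027 against distal peaks and by 0.013 against gene body peaks. With promoter peaks left out the difference of medians was 0.058, with an exact permutation p of 1.

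Single peaks were then compared between Rcor2 and input, after scaling each library to the same sum of heights over all peaks. This takes out depth and also any enrichment that all peaks share. Higher and lower below therefore mean relative to all peaks of the table. The scaled log2 difference of Rcor2 minus input had a median of 0.14 over intergenic peaks, 0.11 over distal, 0.12 over gene body and -0.10 over promoter peaks. With all 6 libraries in 1 limma fit, 0 of 1642 intergenic peaks were called (background 0% of 6995), with a smallest adjusted p of 0.0870. At an unadjusted p under 0.05 there were 118 higher and 114 lower, together 14.1% of intergenic peaks, against 14.5% of all peaks. The 2 IgG libraries take part in that fit's estimate of the spread. In a limma fit of the 4 Rcor2 and input libraries alone, 135 intergenic peaks were higher in Rcor2 (background 7.39%) and 122 lower (background 9.44%). That fit's standard errors (SE) need not follow the spread of a peak's own libraries. The SE was 0.23 at chr10:72297119-72297437, where scaled Rcor2 heights were 21.7 and 70.9. It was 0.24 at chr2:30737373-30737960, where they were 30.0 and 30.0. The p-values on 4 libraries thus rest largely on a spread shared over peaks, not on that of the single peak. The scaled heights of both Rcor2 libraries were above both input libraries at 597 intergenic peaks (36.4%, background 32.6%) and below both at 321 (19.5%, background 24.7%). At promoter peaks these shares were 24.2% and 37.1%.

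**Figure D2:**
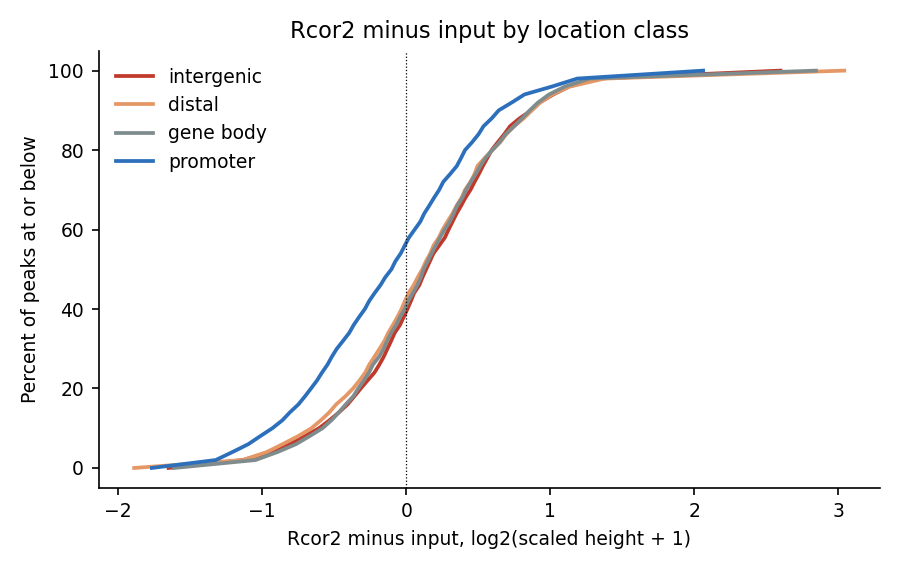
Cumulative percent of peaks (vertical axis) by the scaled Rcor2 minus input difference in log2(height + 1) (horizontal axis), drawn at every second percentile for the 4 location classes. The intergenic, distal and gene body curves lie together with medians of 0.14, 0.11 and 0.12, and the promoter curve is shifted left with a median of -0.10.

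The IgG libraries, measured the same way, also stood higher against input at intergenic than at promoter peaks. IgG against input gave 0 called intergenic peaks (background 0%) by limma, with 166 higher and 108 lower at an unadjusted p under 0.05, together 16.7% of intergenic peaks against 19.5% of all peaks. Scaled IgG was above input in both libraries at 456 intergenic peaks (27.8%, background 25.2%) and below at 285 (17.4%, background 22.3%). The median scaled IgG minus input difference was 0.08 over intergenic and -0.25 over promoter peaks. Unscaled, both Rcor2 libraries exceeded both IgG libraries at 1627 of 1642 intergenic peaks (99.1%, background 98.9%), which is the contrast on which the peaks were called. Across the 1642 peaks the replicate heights correlated with a Pearson r of 0.41 for Rcor2, 0.12 for IgG and 0.71 for input, given as a description since the peaks share their libraries. The IgG heights are low whole numbers, which limits the precision of any value scaled from them.

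The peaks that stood out most by the authors' fold enrichment were broad. The highest, 14.0, was chr3:51081758-51082843, 1086 bases long, inside the lncRNA gene Gm29230 and 142 kb from Noct, which encodes a circadian phosphatase. Its heights were 33 and 91 in Rcor2, 11 and 4 in IgG and 29 and 24 in input. Both Rcor2 libraries were above the input libraries, but they differed greatly from each other. The next, 12.3, was chr18:35875139-35875765 inside the lncRNA gene Gm41693 and 13.4 kb from Cxxc5, which encodes a CpG-binding zinc finger protein. It had 33 and 66 in Rcor2, 9 and 4 in IgG and 21 and 16 in input. The third, 11.8, was chr7:129774904-129775572 inside Gm33323 and 139 kb from Wdr11, with 39 and 56 in Rcor2, 6 and 2 in IgG and 18 and 22 in input.

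The fourth, chr2:30737373-30737960, lay in no RefSeq gene. Its heights were 36 and 53 in Rcor2, 5 and 4 in IgG and 13 and 16 in input, and its scaled log2 difference from input was 1.22 ± 0.26 (SE), with an adjusted p of 0.113 by limma on 6 libraries and 2.08e-05 on 4. The fifth, chr8:120306556-120307156, lay inside Gse1, which encodes a protein known as a partner of CoREST complexes. It had 25 and 56 in Rcor2, 6 and 6 in IgG and 26 and 20 in input, so that the Rcor2 and input libraries overlapped. The highest pileup of the class, 137, was at chr10:72297119-72297437, a peak named here after its values were seen. It had 26 and 125 in Rcor2, 12 and 12 in IgG and 15 and 14 in input, so most of its height came from the second Rcor2 library.

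The peaks with the largest Rcor2 minus input difference were low in input. First was chr13:78281130-78281387, inside the lncRNA gene Gm46387 and 82.3 kb from Nr2f1, a nuclear receptor that patterns the cortex. It had heights of 13 and 17 in Rcor2, 3 and 3 in IgG and 1 and 1 in input, a scaled difference of 2.60 ± 0.83 (SE; adjusted p 0.183 by limma on 6 libraries, 0.00104 on 4). Its scaled IgG minus input difference was 2.40, so both immunoprecipitations stood above input there. The same held at chr2:20177753-20177904 in Etl4, with 11 and 17 in Rcor2, 3 and 3 in IgG and 1 and 1 in input. The 3 other peaks of this kind were chr14:51497952-51498133 in Gm7247 (difference 2.49), chr16:65367807-65367963 near Pou1f1 (2.40) and chr3:25152933-25153210 near Naaladl2 (2.35). A difference of 1 or more was found at 101 intergenic peaks (6.15%, all peaks 5.63%). Among these the median input heights were 6 and 6, and 91 also had a scaled IgG above input. The choice by this difference favours low input, and the IgG difference uses the same input libraries, so neither value adds support. Over all intergenic peaks the median scaled IgG minus input difference was 0.08. The part that low input plays in these differences was not tested.

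At the other end, input was taller than Rcor2. The lowest difference was -1.65 ± 0.29 (SE) at chr8:18133076-18133277, 462 kb from Mcph1, with heights of 10 and 15 in Rcor2, 4 and 5 in IgG and 35 and 32 in input (adjusted p 0.0947 by limma on 6 libraries, 5.30e-08 on 4). Both input libraries were above both Rcor2 libraries, although the peak was called. Another of the 5 lowest, chr8:44816449-44816671, had 11 and 17 in Rcor2, 8 and 9 in IgG and 36 and 33 in input; it lay 52 bp from the peak chr8:44816241-44816396, the closest pair of the class. Also among them were chr8:12132444-12132795 (-1.38) and chr9:30137926-30138108 (-1.37). The widest intergenic peak, chr8:12132935-12134451 at 1517 bases, was also taller in input, with 22 and 37 in Rcor2, 9 and 8 in IgG and 53 and 48 in input. The next widest were chr19:12011037-12012342 over the tRNA gene n-TLtaa4 (1306 bases) and chr4:130972653-130973838 near Matn1 (1186 bases).

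The widest peaks had higher median heights than the narrowest in all 6 libraries. The 554 peaks under 200 bases had median Rcor2 heights of 11 and 16 and a median scaled Rcor2 minus input difference of 0.09. The 542 peaks from 200 to under 300 bases had 13 and 18 and a difference of 0.11, and the 422 from 300 to under 500 bases had 16 and 22 and 0.23. The 124 of 500 bases or more had 19 and 26.5 and 0.30. In these same 4 bins, narrow to wide, the median IgG heights were 4 and 3, 4 and 3, 5 and 4, and 5.5 and 4, and the median input heights 10 and 10, 12 and 11, 13 and 13, and 16 and 14. Rcor2 width and height come from the same libraries, so this is a description.

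Spacing was taken as the gap from each peak to the nearest other peak. Of the 1642, 565 (34.4%, 95% Clopper-Pearson interval 32.1 to 36.8%, counting error only) lay within 10 kb of another peak of the table, against 45.1% of distal, 37.2% of gene body and 21.3% of promoter peaks and 34.3% of all peaks. For 552 of the 565 the nearest peak was itself intergenic. Location classes go with the distance from genes, which close neighbours largely share, so this count is a description only. The median gap to the nearest other peak was 43998.5 bp, against 15953 bp for distal, 25960 bp for gene body and 71862 bp for promoter peaks. Joining intergenic peaks under 10 kb apart gave 241 groups of at least 2 peaks, holding 555 peaks, and 1087 single peaks. At the authors' -log10 q of at least 5, the share within 10 kb was 21.0% (186 of 885 peaks); fewer peaks in the list lengthen the gaps. The most isolated peak, chrX:82407517-82407805, was 10762 kb from any other.

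**Figure D3:**
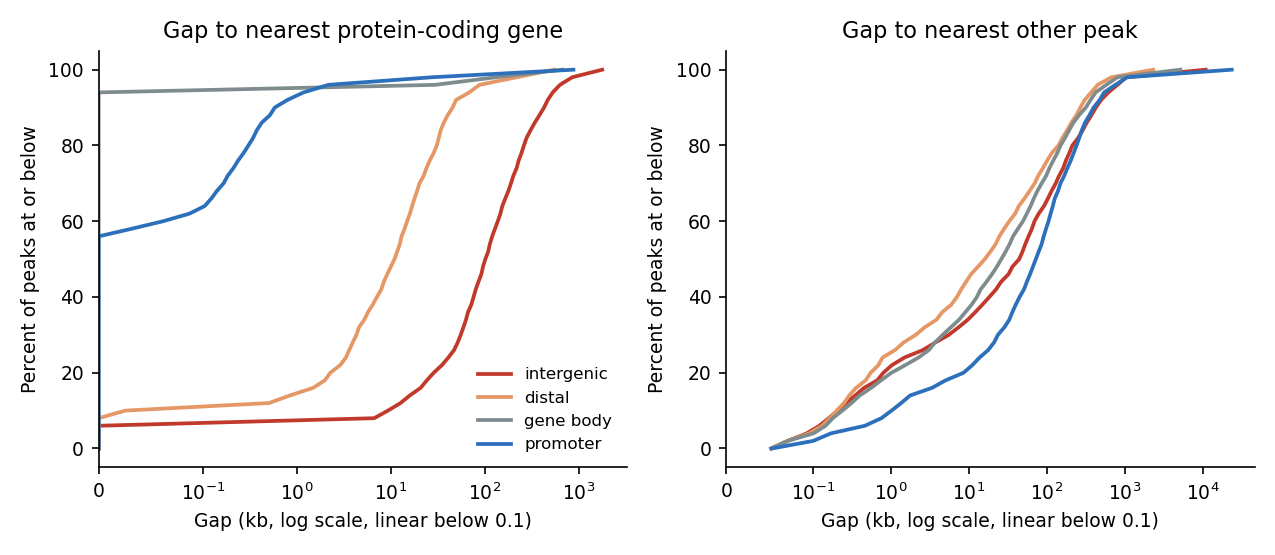
Cumulative percent of peaks by the gap to the nearest RefSeq protein-coding gene (left) and to the nearest other peak (right), in kb on a log axis that is linear below 0.1 kb, for the 4 location classes. Intergenic peaks lie farthest from coding genes (median 101296 bp), while their spacing falls between the gene body and promoter classes (median 43998.5 bp).

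The largest group held 7 peaks in 15948 bases (chr7:73632169-73648116), with Rcor2 heights of 8 to 17 and 18 to 26, IgG of 1 to 7 and 2 to 5, and input of 5 to 18 and 4 to 14. Its closest coding gene was Chd2, a chromatin remodeller, 90423 bp away, and a group of 5 peaks (chr7:73609495-73619776) lay just before it. A group of 6 (chr1:171036800-171045268) covered 2 peaks on tRNA genes beside Fcgr4. A group of 4 on chromosome 19 (chr19:12005923-12012342) had a tRNA gene under every peak. Another group of 5 was at chr5:111658731-111688754, closest to Mn1, a transcriptional coregulator. Its heights ran from 10 to 21 and 14 to 28 in Rcor2, from 0 to 7 and 2 to 4 in IgG, and from 12 to 28 and 8 to 29 in input.

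By chromosome, the intergenic share of peaks was highest on X (42.4%, 14 of 33, interval 25.5 to 60.8%), 12 (33.7%, 110 of 326) and 3 (33.0%, 116 of 352). It was lowest on 17 (11.6%, 26 of 224), 11 (11.9%, 52 of 437) and 15 (13.4%, 32 of 238). The Y had 0 intergenic peaks of 6. The intervals of chromosomes 12 and 3 did not overlap those of 17, 11 and 15. The share went with the part of a chromosome that lies over 50 kb from any coding gene, with Pearson's r 0.70 and Spearman's rho 0.73 over 20 chromosomes and r 0.65 over the 19 autosomes, given as a description because all chromosomes share the same libraries. Of chromosome 15, 41.0% lay that far from coding genes, and the 24 intergenic peaks in that span came to 0.564 per Mb of it. Counted the same way, chromosome 17 had 0.570 per Mb, and these were the lowest densities of the 19 autosomes. Chromosome 4 had the most intergenic peaks, 165, and the highest density, with 120 of them in such span or 2.05 per Mb. X had 9 in such span, or 0.115 per Mb. The sex of the embryos is not in the labels, so the number of X copies behind that value is unknown.

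**Figure D4:**
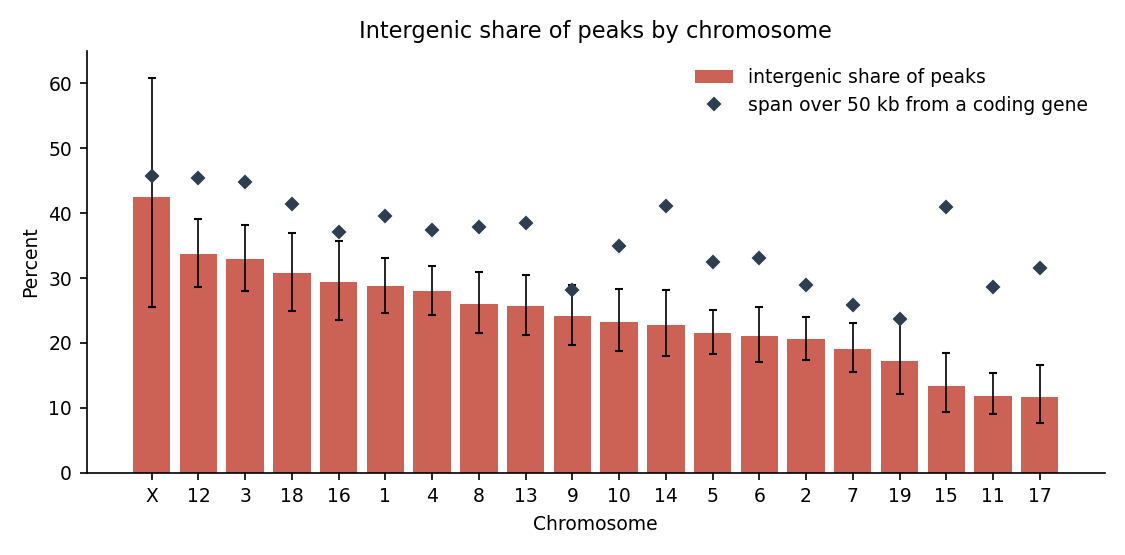
Intergenic share of all peaks (bars, percent, with 95% Clopper-Pearson intervals) and the share of each chromosome's span that lies over 50 kb from a RefSeq protein-coding gene (diamonds, percent), ordered by the bars; Y, with 0 of 6 peaks, is left out. The bars run from 42.4% on X to 11.6% on 17, and chromosome 15 has a low bar (13.4%) beside a high diamond (41.0%).

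The submitters' table names no gene for any intergenic peak, so each peak was given the nearest RefSeq protein-coding gene by span, at any distance. Nearness is not evidence of regulation. This gave 895 genes, 530 of them with 1 peak and 172 with 3 or more. Castor2 had the most, 15 peaks 98.9 to 423 kb away. Mycn, the proto-oncogene that keeps neural progenitors dividing, had 14 peaks 31.5 to 267 kb away. Zfp608, a zinc finger protein gene, had 12, and Mn1 and Zmiz1, a coactivator that binds SUMO ligases, had 11 each.

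The tallest Mycn peak by fold enrichment, 8.49, was chr12:12709430-12710000, with 27 and 41 in Rcor2, 5 and 3 in IgG and 15 and 8 in input, and 11 of the 14 Mycn peaks had a scaled Rcor2 height above input. At Castor2 this held for 10 of 15 peaks, at Zfp608 for 6 of 12, at Mn1 for 6 of 11 and at Zmiz1 for 5 of 11. Over all intergenic peaks it held for 991 of 1642 (60.4%), and over all peaks for 55.5%. In RNA, Mycn had 4771 and 4932 normalized counts in cKO and 4723 and 4673 in control, a log2 change of 0.05 ± 0.04 (SE; adjusted p 0.529 by limma). Castor2, listed in the RNA table as Gatsl2, had 2326 and 2196 in cKO and 2054 and 2153 in control (adjusted p 0.245). Zfp608 (adjusted p 0.125) and Zmiz1 (0.147) did not pass either. Mn1 had 4996 and 5030 in cKO and 5620 and 5761 in control and fell by 0.18 (adjusted p 0.0274), a call that was lost without either control library and without the first cKO library.

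Before the RNA results, the libraries themselves need stating. Rcor2 had 6363 and 6840 normalized counts in cKO and 7901 and 7257 in control, lower in both cKO libraries but not called (log2 change -0.20 ± 0.06, SE; adjusted p 0.0541 by limma). The counts are per gene, no source used here gives the floxed part, and a transcript without it can still be counted. Recovered reads numbered 28309925 and 29783893 in cKO and 30270598 and 27674987 in control. All 8 markers of the dorsal telencephalon were present, summing to 53195 and 53973 in cKO and 56466 and 56646 in control, with 4 that rose and 2 that fell. Vessel markers (4 of 4 in the table) summed to 8118 and 5996 in cKO and 6089 and 6185 in control; of these Col1a1 rose, with 2442 and 611 in cKO and 355 and 258 in control. Microglial markers (3 of 3) summed to 840 and 849 in cKO and 974 and 868 in control, with none called. Ventral telencephalon markers (3 of 3) summed to 450 and 540 in cKO and 905 and 911 in control, where Lhx6 fell and Nkx2-1 was near 0. Of 3 blood markers only Alas2 was in the table, with 269 and 372 in cKO and 665 and 863 in control. Alas2 fell, with a log2 change of -1.26 (adjusted p 0.00589 by limma). The part of these other cells in the results was not tested, and fewer cells of a type and less RNA per cell cannot be told apart in bulk tissue.

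The RNA of genes nearest to intergenic peaks was compared between cKO and control. Of the 895 genes, 755 were in the RNA table and 709 had a mean of at least 10 normalized counts. By limma, 71 rose and 110 fell in cKO, 181 in all (25.5%), against backgrounds of 6.16%, 8.29% and 14.5% of 14324 genes. Such genes also had a higher median level, 1521 against 833 normalized counts over all genes tested, and a longer median span, 73.7 against 24.4 kb, whose part in the count was not tested. Among the 306 that also had a peak of another class named for them, 32.4% were called, and among the 403 that had none, 20.3%. The shares were 22.0% for genes named for distal peaks, 26.6% for gene body peaks, 18.2% for promoter peaks and 12.4% for genes with no peak. Genes with 1, 2 and 3 or more intergenic peaks had 23.2%, 30.1% and 27.3% called. By the distance of the closest peak, 24.0% were called at 1 to 50 kb, 24.8% at 50 to 200 kb and 27.6% at 200 kb or farther, with 12 of 36 called where the peak lay on the gene. The number of calls rested on the control libraries: without control replicate 1, 23 were called (3.24%, against 1.20% of all genes) and without control replicate 2, 17 (2.40%, against 0.977%).

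The 8 rises with the smallest adjusted p were Id4, Tacr3, Zfp217, Dmrta1, Sox3, Zfp516, Alpk1 and Zfp36l1. Id4, which blocks DNA binding by helix-loop-helix factors and is expressed in neural progenitors, had 10076 and 9245 normalized counts in cKO and 5994 and 6044 in control, a log2 change of 0.68 ± 0.05 (SE; adjusted p 0.00244 by limma), with 1 peak 317 kb away. Tacr3, the neurokinin B receptor, had 340 and 311 in cKO and 144 and 143 in control (1.18 ± 0.12; adjusted p 0.00387). Dmrta1, a doublesex-related transcription factor of the telencephalon, had 545 and 444 in cKO and 191 and 241 in control (1.19 ± 0.14; adjusted p 0.00494). Both cKO libraries were above both controls for each of these genes, which their choice by adjusted p favours, so it adds no support. Sox3, a SoxB1 factor of neural progenitors, had 1734 and 1629 in cKO and 1210 and 1252 in control (0.45 ± 0.06; adjusted p 0.00568). Zfp516 (0.46), Alpk1, an innate immune kinase (0.50), and Zfp36l1, which speeds decay of AU-rich mRNA (0.45), rose as well.

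Zfp217 was also among the 8 and belongs to the list of CoREST partners; the protein binds CoREST and Kdm1a in human cells. It had 1923 and 1832 normalized counts in cKO and 1303 and 1293 in control, a log2 change of 0.53 ± 0.05 (SE; adjusted p 0.00387 by limma). Its peak, chr2:170194197-170194625, lay 42.5 kb away. It shared 107 bases with the upstream part of the start window of the lncRNA Gm17619, with its summit outside that window. The peak had heights of 19 and 38 in Rcor2, 7 and 3 in IgG and 8 and 10 in input. Both Rcor2 libraries were above both input libraries, with a scaled difference of 1.17. The start window of Gm17619 is shown because the coding gene nearest to this peak changed, with the bases inside the peak in capitals.

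Gm17619 (chr2:170194004-170194303, minus strand): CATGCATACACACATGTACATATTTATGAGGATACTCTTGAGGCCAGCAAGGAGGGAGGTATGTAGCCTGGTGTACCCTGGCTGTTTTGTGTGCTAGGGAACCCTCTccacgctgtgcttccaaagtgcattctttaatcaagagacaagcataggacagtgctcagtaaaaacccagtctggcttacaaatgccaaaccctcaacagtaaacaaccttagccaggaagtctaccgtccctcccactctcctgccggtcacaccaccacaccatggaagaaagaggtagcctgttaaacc

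The 8 falls included adhesion molecules, glutamate receptor subunits and a splicing factor. Cdh8, a type II cadherin, had 642 and 748 normalized counts in cKO and 1430 and 1401 in control and fell by 1.03 ± 0.08 (SE; adjusted p 0.00244 by limma), with 1 peak 227 kb away. Dlgap1, a postsynaptic scaffold, had 603 and 776 in cKO and 1322 and 1373 in control and fell by 0.98 ± 0.11 (adjusted p 0.00429); its peak lay on the annotated gene. Chl1, an L1-family adhesion molecule of growing axons, had 5342 and 6458 in cKO and 10047 and 10117 in control and fell by 0.78 ± 0.08 (adjusted p 0.00387), with 3 peaks 88.8 to 332 kb away. For each of these genes both cKO libraries were below both controls, which the choice by adjusted p again favours, so it adds no support. Grin2b, an NMDA receptor subunit, fell by 0.71, and Grik3, a kainate receptor subunit, fell by 0.55. Nav3, a neuron navigator, fell by 0.75. Rbfox1, a neuronal splicing factor, fell by 0.77, and Igfbp3, an insulin-like growth factor binding protein, fell by 0.77.

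**Figure D5:**
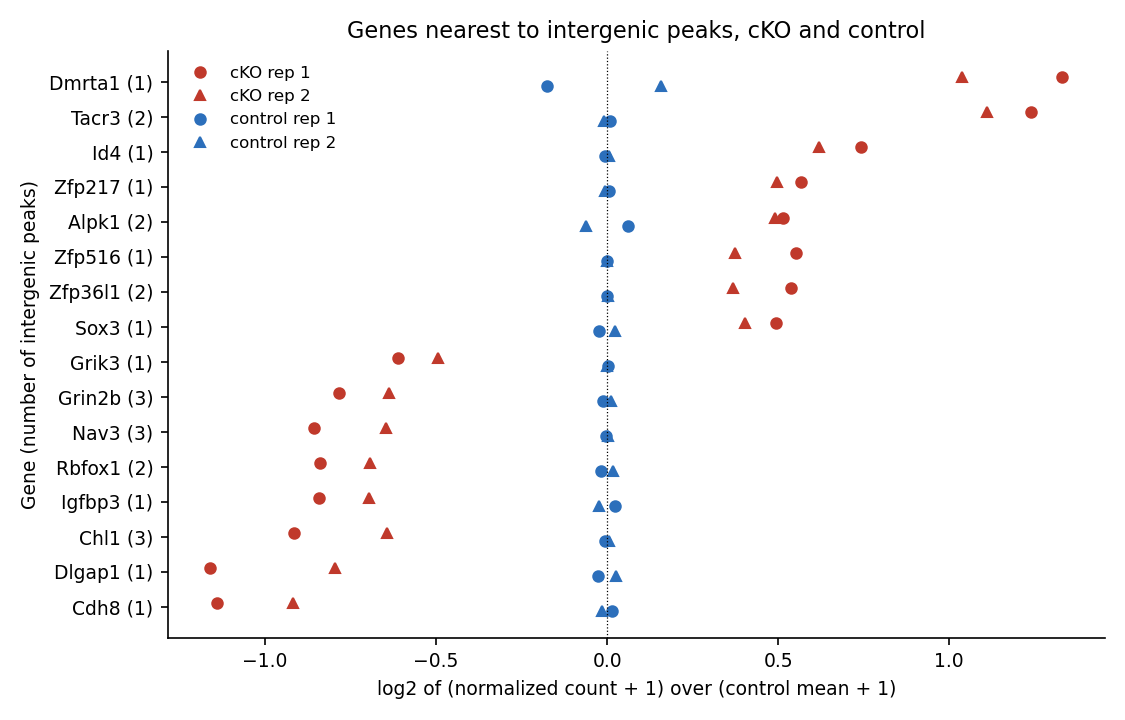
Normalized counts of the 8 rises and 8 falls with the smallest adjusted p among genes nearest to intergenic peaks, as log2 of (value + 1) over (control mean + 1), for 2 cKO libraries (red) and 2 control libraries (blue); the number of peaks follows each name. The control libraries lie close to 0 and each other, except for Dmrta1 (191 and 241 normalized counts).

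Cortical patterning factors set the position and identity of progenitors. Of 20 on the list, 10 were nearest to an intergenic peak, with 20 peaks, and of these 5 rose and 1 fell (median log2 change 0.27). In the whole list 11 rose and 1 fell of 20 tested (median 0.22). The difference between the 10 and the rest of the list was not tested. All gene lists used here were chosen with earlier results of these data known, so their directions are descriptions. Over all genes tested, 6.16% rose and 8.29% fell. Sp8 had 816 and 701 normalized counts in cKO and 499 and 509 in control (0.58 ± 0.09, SE; adjusted p 0.00778 by limma). Lef1, the nuclear partner of beta-catenin in Wnt signalling, rose by 0.38, Zic1 by 0.30, Gli3, which represses hedgehog targets, by 0.28, and Emx2 by 0.25. Meis2 fell by 0.22. Nr2f1, with 5 peaks from 82.3 to 1232 kb away, had 6154 and 5865 in cKO and 5460 and 5725 in control and was not called (0.10 ± 0.05; adjusted p 0.190). Nr2f2, Tcf4 and Tshz2 were not called either.

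On the list of factors of callosal and other projection neurons, chosen in the same way, more fell than rose. Of 21, 11 were nearest to an intergenic peak, with 28 peaks; of these 1 rose and 5 fell (median -0.18), against 1 that rose and 12 that fell in the whole list (median -0.22). Mef2c fell by 0.60 ± 0.08 (SE; adjusted p 0.00540 by limma), with 2046 and 2433 normalized counts in cKO and 3405 and 3377 in control. Pou3f2, an upper-layer POU factor, fell by 0.54, Neurod6 fell by 0.42, Sox5, which times deep-layer fates, fell by 0.33, and Tbr1 fell by 0.18. The Tbr1 call (adjusted p 0.0348 by limma) was lost after quantile normalization (0.0654), without either control library or the second cKO library, and in the authors' deposited table (adjusted p 0.0615). Neurog2, the proneural factor of cortical progenitors, rose by 0.28, with 1 peak 10.4 kb away. Pou3f3, with 6 peaks, Nfib, with 5, Sox11, with 4, Nfia and Fezf2 were not called by limma. Nfib had 93698 and 91890 in cKO and 93910 and 102594 in control (adjusted p 0.430 by limma). Sox11 (log2 change -0.22, adjusted p 0.0659 by limma) did pass in the authors' deposited table (adjusted p 0.00683).

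Axon guidance genes nearest to intergenic peaks numbered 8 of 22, with 24 peaks; 0 rose and 4 fell (median -0.14), against 2 and 8 of 22 in the whole list (median -0.12). Robo1, a Slit receptor, had 7 peaks from 0 to 61.4 kb away and fell by 0.39 ± 0.06 (SE; adjusted p 0.00667 by limma), with 5580 and 5997 normalized counts in cKO and 7885 and 7300 in control. Nrp1, a semaphorin receptor of callosal axons, had 8914 and 9928 in cKO and 13487 and 13762 in control and fell by 0.53 ± 0.06 (adjusted p 0.00429). Efnb2 fell by 0.28 and Unc5d fell by 0.19. The Unc5d call (adjusted p 0.0305 by limma) was lost without either control library or the first cKO library, and in the authors' deposited table (adjusted p 0.0523). Dcc, Epha4 and Epha5 were not called, nor was Wnt5a, with 2695 and 1986 in cKO and 2043 and 1503 in control (0.40 ± 0.16; limma unadjusted p 0.0375, adjusted p 0.138), the only member of the 8 that was higher at an unadjusted p under 0.05. Of the 13 CoREST and Rest genes, Zfp217 is described above. In the whole list 2 rose and 1 fell of 12 tested. Of the 33 called genes named in these paragraphs, 17 lost the call without control replicate 1 and 19 without control replicate 2.

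Only 1 intergenic peak lay within 5 kb of an annotated miRNA gene: chr3:137784165-137784393 was 550 bp from Mir6380, with heights of 16 and 11 in Rcor2, 3 and 2 in IgG and 15 and 12 in input, so Rcor2 and input overlapped.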

How the data were processed

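Groups and replicate numbers came from the sample titles. Trim Galore, HISAT2 2.1.0 and mm10 are listed in the submitters' processing notes, without a step. Peaks were called on Rcor2 against IgG, per the file headers and the peak names. For each peak the authors deposited a pileup and 6 heights (coverage signal, whole numbers, not scaled), a fold enrichment ratio over IgG and, in columns whose headers were spoiled, −log10 p and −log10 q by place and range. Peak numbers run to 7106, so 111 of them are not listed. Per the file headers the authors' RNA table holds normalized counts (signal), log2 fold changes, a test score and p-values. The counter, the caller's settings and the rule for location classes are in none of the sources used here. Whole reads were recovered for 100% of RNA values (tolerance 0.001). ChIP library totals were not analysed here.

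Heights were scaled to equal sums over 6995 peaks and fitted as log2(height + 1) with limma-trend (limma 3.58.1, R 4.3.3). The fit of 6 libraries had residual df 3 and prior df 7.14. RNA was fitted as log2(normalized count + 1), which understates changes of low genes, over 14324 genes with a mean of at least 10 (residual df 2, prior df 6.21). Tests were two-sided, with Benjamini-Hochberg adjustment over all peaks or genes and a threshold of 0.05. The test planned on genes that the authors name for intergenic peaks could not use their names, since the table gives none, so the nearest of 21887 RefSeq coding genes (GRCm38.p6) by span was used. That build was checked on promoter peaks, of which 100% lay within 5 kb of their named gene. Start windows exclude chromosome 18. No genome sequence was used. edgeR 4.0.16 on recovered reads was an alternative, and the scripts were tested on simulated data. Figures used Python 3.11.15 and matplotlib 3.10.9.

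Named peaks were the 5 with the largest fold enrichment, the 5 largest and 5 lowest Rcor2 minus input differences, the 3 widest, the closest pair and the most isolated. Named genes were the 5 with most peaks, up to 8 rises and 8 falls by adjusted p, and every member of 4 lists nearest to an intergenic peak. The members and lists were chosen with earlier results of these data known. Results at 1 locus that these rules name are not reported here.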

Additional observations from a re-analysis of the deposited data

How the results depend on the processing

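Intergenic peaks called for Rcor2 against input, 0 over 6 libraries, numbered 31 on unscaled heights (31 higher), 6 after quantile normalization (3 higher, 3 lower), 9 at a mean height of at least 10 (3 higher, 6 lower), 3 at an authors' -log10 q of at least 5 (1 higher, 2 lower) and 257 with only the 4 libraries compared (135 higher, 122 lower). These are 1.89, 0.365, 0.877, 0.339 and 15.7% of intergenic peaks, against 1.60, 0.357, 1.03, 0.438 and 16.8% of all peaks under the same settings. Leaving out 1 library gave 0 to 272 (0 to 149 higher, 0 to 123 lower): 264 and 272 without IgG replicate 1 and 2 (16.1 and 16.6%, all peaks 17.7 and 17.5%), and 0 without any Rcor2 or input library. For IgG against input, also 0, unscaled heights gave 1226, all 1226 lower (74.7%, all peaks 77.6%), and a mean height of at least 10 gave 1, which was lower (0.0975%, all peaks 0.385%); leaving out 1 library gave 0 to 423 (0 to 204 higher, 0 to 219 lower), with 423 and 348 without IgG replicate 1 and 2 (25.8 and 21.2%, all peaks 26.6 and 22.8%). Unscaled heights also hold each library's depth; the cause of the other changes was not tested. The share within a set distance of another peak was 52.4% at 50 kb and 21.0% at the stricter q. Genes called in RNA, 181, ranged over 17 to 258 without 1 library (5 to 118 higher, 12 to 140 lower), where the lone library of a genotype is assumed to vary like the others. They numbered 107 of 428 (45 higher, 62 lower; 25%, all genes 14.5%) for peaks within 100 kb, chosen after seeing the data, where fewer genes enter. edgeR called 167 of 709 (23.6%, all genes 12.2%), the authors' deposited adjusted p 156 of 709 (22.0%, all genes 11.1%) and the nearest gene start gave 133 of 613 (21.7%, all genes 14.5%). The other alternatives left 101 of these summary values within the allowed range. Counts were judged only as within that range or outside it, so a reversal could not be recorded for them. The difference between intergenic and other peaks in Rcor2 against input kept its sign in every setting. The median scaled Rcor2 minus input difference over intergenic peaks, 0.14, became -0.014 at a mean height of at least 10, where the other peaks had -0.12.

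Replicate numbers are shared by the groups, but nothing in the labels ties them. With the replicate block, limma called 0 intergenic peaks in both contrasts and 182 genes (77 higher, 105 lower), and Wnt5a, not called without it (limma adjusted p 0.138), passed at 0.00388 (0.00370 without cKO replicate 2 and no block). Deviations of same-numbered libraries correlated at 0.003 for Rcor2 and IgG, -0.021 for Rcor2 and input, and 0.242 in RNA. Low IgG heights (medians 4 and 3) limit what a contrast with IgG can show.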
